A study of Mus musculus with 12 samples.

Results

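Birc2, Birc3, Ripk2, Map3k7 and Map3k8 encode inhibitor of apoptosis proteins and kinases that pass signals to the transcription factor NF-kB. They were taken as the rows of these names in the count files, 5 of 53546 rows, and all 5 were among the 9565 rows with enough counts to be tested. Total RNA of mouse serum was sequenced for a normal and a colorectal cancer group, 6 samples each, which the labels call biological replicates; the series' text speaks of serum of different mice, and whether serum was pooled is not stated. The sources used here do not give strain, age, sex or how the tumours arose, nor any treatment. Every row had the same value in the files of colorectal cancer replicates 5 and 6, so these count as a single library, named replicate 6 after the header of both, and 6 normal and 5 colorectal cancer libraries were compared.

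The cellular inhibitor of apoptosis proteins cIAP1 (Birc2) and cIAP2 (Birc3) are ubiquitin ligases recruited to TNF receptors. They add ubiquitin chains to signalling partners, keep the non-canonical NF-kB kinase NIK low and restrain cell death. RIPK2 (Ripk2) relays the signal of the bacterial peptidoglycan sensors NOD1 and NOD2, TAK1 (Map3k7) activates the IKK complex below TNF, interleukin-1 and Toll-like receptors, and TPL2 (Map3k8) activates the MEK and ERK kinases in innate immune cells.

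Library totals lay between 2889205 and 20774889 counts. One row, Olfr648 (by its name an odorant receptor), took 7969078 to 17324370 counts in 6 libraries (normal replicates 2 and 3 and colorectal cancer replicates 1, 2, 4 and 6) and 3247 to 5150 in the other 5. Without it the totals lay between 2885958 and 4089488 in the normal and between 3727908 and 7033966 in the colorectal cancer libraries. Rows above 0 numbered 10409 to 12384 in the normal and 12426 to 15179 in the colorectal cancer libraries, with no overlap. Depth and detection thus differed with group. Levels below are CPM, counts scaled to a common library total, after TMM scaling, which limits the influence of a dominant row.

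The labelled material is serum, and the column headers call it blood. Of 13 neutrophil markers 8 were at 0 in every library, among them S100a8, S100a9 and Ly6g. All 8 liver markers were at 0 or too low to test, and 5 of 11 intestinal epithelium markers were at 0, among them Epcam, Krt8 and Krt20. Another 4 of these 11 were tested and not called, led by Lgr5, a receptor of intestinal stem cells, at 119 ± 7.36 CPM in the normal and 124 ± 13.8 in the colorectal cancer libraries, followed by the mucin gene Muc2 at 12.5 ± 2.42 and 10.3 ± 2.73 (SD, n = 6 and 5). B cell markers were present: Pax5, a B cell transcription factor, stood at 725 ± 146 CPM in the normal and 716 ± 37.8 in the colorectal cancer libraries (SD, n = 6 and 5). Over all protein-coding genes with a single position in the annotation 8987 of 21294 (42.2%) were at 0, so a row at 0 does not show that its gene was silent, and these files do not show whether each row measures the gene it is named for. Whether this varies along the chromosomes is not settled: the share at 0 was 36.3% among genes in the first 10 Mb, where Birc2, Birc3 and Map3k8 lie, 46.5% from 10 to 20 Mb, where Ripk2 lies, 43.4% from 20 to 40 Mb, where Map3k7 lies, and 41.9% and 42.2% farther along. The limit holds as much for the marker, pathway and most alike rows given later, which lie across the genome.

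Around the 5 genes the share of rows at 0 was below that 42.2%, a description with no test. Among the 20 protein-coding neighbours on each side, 7 of 40 (17.5%) were at 0 around Birc2 and Birc3, 4 of 40 around Ripk2 and 3 of 40 (7.5%) around Map3k7. Map3k8 lies 5 such genes from the start of its chromosome, and 3 of its 25 neighbours (12.0%) were at 0. Some of the 5 nearest neighbours on each side were near 0. Summed over the 11 libraries these included Cngb3, a cone photoreceptor channel, with 9 counts, Gja10, a retinal connexin, with 7 and Epha7, an ephrin receptor, with 23. Rows of broadly used genes were high, such as Mdn1, of ribosome assembly, with 32069 and Tmem123, a mucin-like membrane protein, with 97337. The genes of this paragraph were named after their values were seen.

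**Figure D1:**
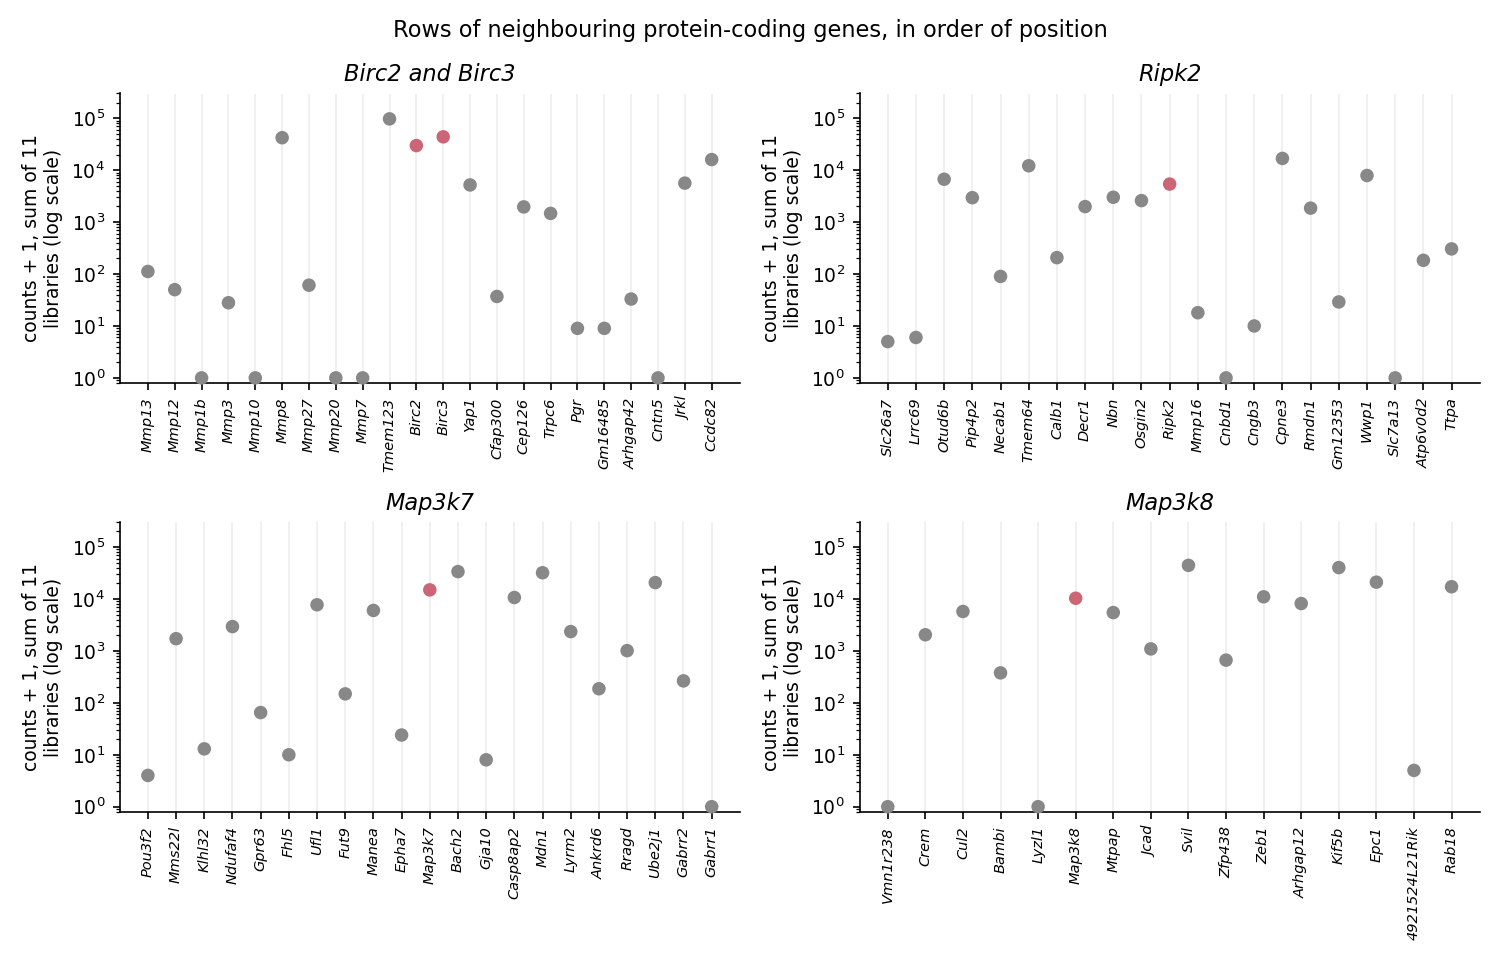
Summed counts of the 11 libraries plus 1, on a log axis, for each member (red) and up to 10 protein-coding neighbours on each side (grey), in order of position. Rows near each member range from near 0 to above the member itself, for example Tmem123 at 97337 beside Birc2 and Epha7 at 23 beside Map3k7.

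Positions are those of GENCODE release M21 (mm10), and no member shares exon bases with another annotated gene. Birc2 lies on chromosome 9 from 7818227 to 7837064 and Birc3 beside it from 7848699 to 7873186, both on the minus strand. Of the distinct stretches of 50 bases in the Birc2 transcripts, 65 of 4579 also occur in Birc3 transcripts, and the sharing of reads between them was not tested. Ripk2 (16122733 to 16163647, minus strand) and Map3k7 (31964097 to 32023467, plus strand) lie on chromosome 4. Ripk2 and Map3k8 share no such stretch with any other gene, while 4.5% of those of Map3k7 and 7.56% of those of Birc3 also occur in transcripts of other genes.

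The 2 paralogs went in different directions. Birc2 fell in colorectal cancer by 0.51 on the log2 scale (SE 0.11), a 1.42-fold fall, while Birc3 was 0.27 higher (SE 0.10) and did not pass the test. The stretches upstream of their starts are shown because these neighbouring copies differ there. They end at the first base before the start of the gene in GENCODE, which for both genes lies some bases upstream of the RefSeq start (RefSeq sequence, GRCm38.p6, minus strand, chr9:7837065-7837307 for Birc2 and chr9:7873187-7873420 for Birc3, 243 and 234 bases). Capitals mark matches to the motifs searched.
Birc2: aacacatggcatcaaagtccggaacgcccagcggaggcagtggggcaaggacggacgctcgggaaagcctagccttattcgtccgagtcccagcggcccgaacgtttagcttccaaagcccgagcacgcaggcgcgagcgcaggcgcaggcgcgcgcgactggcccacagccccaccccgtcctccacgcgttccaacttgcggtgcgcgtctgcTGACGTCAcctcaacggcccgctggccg
Birc3: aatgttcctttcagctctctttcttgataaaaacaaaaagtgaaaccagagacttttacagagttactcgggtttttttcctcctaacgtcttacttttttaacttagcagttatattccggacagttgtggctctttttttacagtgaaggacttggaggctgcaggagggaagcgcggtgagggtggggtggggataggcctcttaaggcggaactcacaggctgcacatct
The Birc2 stretch is 67.9% G or C and holds the palindrome TGACGTCA, the cAMP response element, which begins 28 bases before its end. The Birc3 stretch is 44.9% G or C and holds none of the motifs searched on both strands: TGACGTCA, the GC box GGGCGG, the CCAAT box spelled CCAAT, the core of the TATA box spelled TATAAA, the NF-kB consensus and the interferon response core, the last 2 of 10 letters each. The corresponding stretch of Map3k7 holds a GC box and a match to the NF-kB consensus. Of 32841 upstream windows in RefSeq, of slightly greater length, 1.55% hold TGACGTCA, 7.25% the NF-kB consensus, 32.7% the GC box, 33.9% the CCAAT box, 12.4% the TATA box and 2.98% the interferon response core. These are matches of letters, not measured sites.

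Birc2 stood at 403, 362, 338, 315, 359.8 and 476 CPM in normal replicates 1 to 6. In colorectal cancer it stood at 288, 288, 238, 239 and 265 in replicates 1, 2, 3, 4 and 6. Every colorectal cancer library lay below every normal library, with means of 264 ± 24.6 and 376 ± 57.4 (SD, n = 5 and 6). The fall passed the quasi-likelihood test of edgeR after Benjamini-Hochberg adjustment over all 9565 rows (adjusted p = 0.0352, two-sided), where Birc2 ranked 145 by p-value. The call was near the threshold and was lost without normal replicate 1 or 2 or any of the 5 colorectal cancer libraries (adjusted p 0.0592 to 0.0972 by the same edgeR test). In the high Olfr648 libraries alone the difference was -0.37, and in the low ones, with 1 colorectal cancer library, -0.71; neither passed. Scaled by totals alone with Olfr648 left out, the difference was -0.10, where the median of all rows lay at 0.43 instead of 0.04.

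Birc3, whose own transcription is a known NF-kB target, stood at 325, 372, 409, 468, 423 and 375 CPM in normal replicates 1 to 6. In colorectal cancer replicates 1, 2, 3, 4 and 6 it stood at 422, 485, 453, 527 and 488. The groups overlapped, with normal replicates 4 and 5 inside the colorectal cancer range, replicate 5 at its lower end, and the means were 395 ± 49.2 and 475 ± 39.7 (SD, n = 6 and 5). The difference of 0.27 had a 95% interval from 0.05 to 0.48 before adjustment and did not pass over all rows (adjusted p = 0.278, edgeR). Scaled by totals alone without Olfr648 it was 0.66 and passed (adjusted p = 0.00659 by edgeR), where the median of all rows lay at 0.43.

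A ratio of 2 rows within a library does not depend on how libraries are scaled. Birc3 counts per Birc2 count were 0.804, 1.03, 1.21, 1.48, 1.17 and 0.787 in normal replicates 1 to 6. They were 1.46, 1.69, 1.90, 2.20 and 1.84 in colorectal cancer replicates 1, 2, 3, 4 and 6. Normal replicate 4 overlapped the colorectal cancer libraries, just above replicate 1, and all other normal libraries lay below them. The mean log2 ratio was 0.08 ± 0.36 in normal serum and 0.85 ± 0.22 in colorectal cancer (SD, n = 6 and 5), a difference of 0.77 or 1.71-fold (two-sided exact permutation p = 0.00649 over 462 splits). Unlike the edgeR values, this p is not adjusted, and ratios of other pairs of rows were not tested. The difference was 0.67 among the high Olfr648 libraries and 0.89 among the low ones, which are too few to reach a p of 0.05. With each library left out in turn it lay between 0.69 and 0.87 (two-sided exact permutation p from 0.00794 to 0.019).

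**Figure D2:**
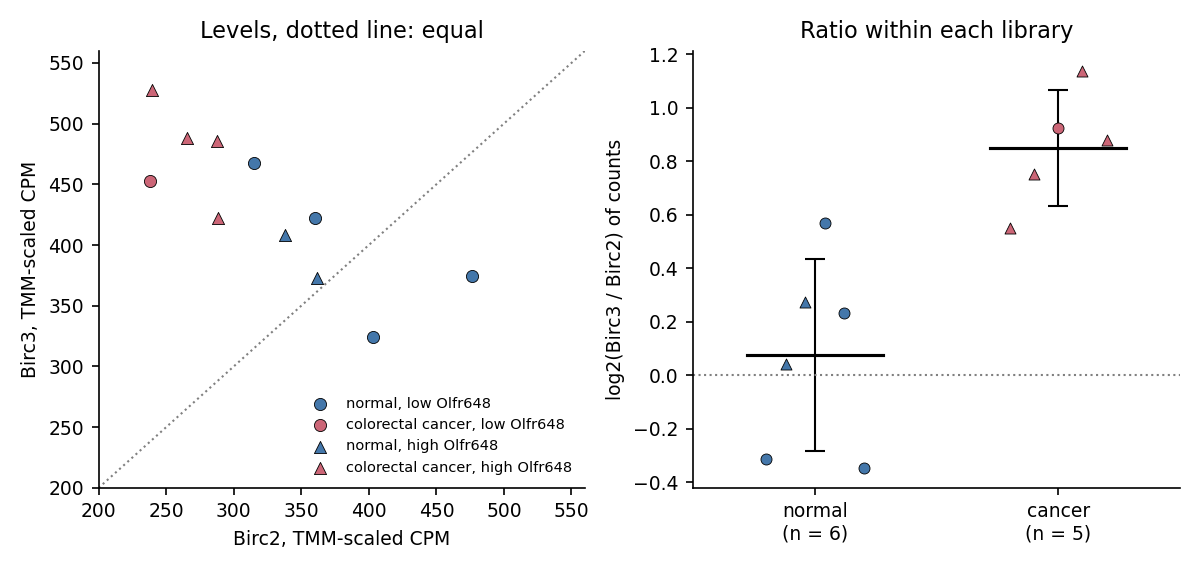
Left, Birc3 against Birc2 in TMM-scaled CPM, 1 point per library, with a dotted line where both are equal. Right, the log2 ratio of their counts in each library with the group mean and SD; the colorectal cancer libraries lie from 0.55 to 1.14 and the normal ones from -0.35 to 0.57.

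Map3k8 lies on chromosome 18 from 4331327 to 4353015, on the minus strand. It rose in colorectal cancer by 0.50 on the log2 scale (SE 0.12), a 1.42-fold rise. It stood at 84.8, 81.0, 113, 78.0, 74.9 and 69.8 CPM in normal replicates 1 to 6. In colorectal cancer replicates 1, 2, 3, 4 and 6 it stood at 119, 118, 121, 109 and 126. Normal replicate 3 alone reached the colorectal cancer range, above replicate 4, and the other 5 normal libraries lay below every colorectal cancer library. The means were 83.6 ± 15.4 and 119 ± 6.04 (SD, n = 6 and 5), a difference that passed over all rows (adjusted p = 0.0453, edgeR). Leaving out any single library except normal replicate 3 ended the call (adjusted p 0.0718 to 0.126 by edgeR), and without normal replicate 3 it was stronger (0.60, adjusted p = 0.00793 by edgeR). The difference was 0.28 in the high Olfr648 libraries and 0.65 in the low ones, and neither passed.

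Map3k7 and Ripk2 did not pass the test. Map3k7 lay between 123 and 169 CPM in normal serum (median 143) and between 150.3 and 170.0 in colorectal cancer. Of the normal libraries, replicates 1 and 2 lay inside the colorectal cancer range, the other 4 below it and none above it, with means of 146 ± 18.7 and 158 ± 8.54 (SD, n = 6 and 5). The difference was 0.11 on the log2 scale, with a 95% interval from -0.10 to 0.32 before adjustment (adjusted p = 0.797 by edgeR). Ripk2 was the least abundant in CPM, from 40.6 to 70.1 in normal serum (median 49.7) and from 50.5 to 72.8 in colorectal cancer. Its groups overlapped over most of their range, and its difference of 0.18 had a 95% interval from -0.14 to 0.49 (adjusted p = 0.782 by edgeR). With the Olfr648 division as a covariate the Ripk2 difference was 0.35 (adjusted p = 0.430 by edgeR). It was 0.34 in the high Olfr648 libraries (adjusted p = 0.432 by edgeR). In the low ones, where replicate 3 alone stood for colorectal cancer, it was 0.36. Scaled by totals alone without Olfr648, Map3k7 and Ripk2 both passed as higher, by 0.51 for Map3k7 and 0.57 for Ripk2.

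**Figure D3:**
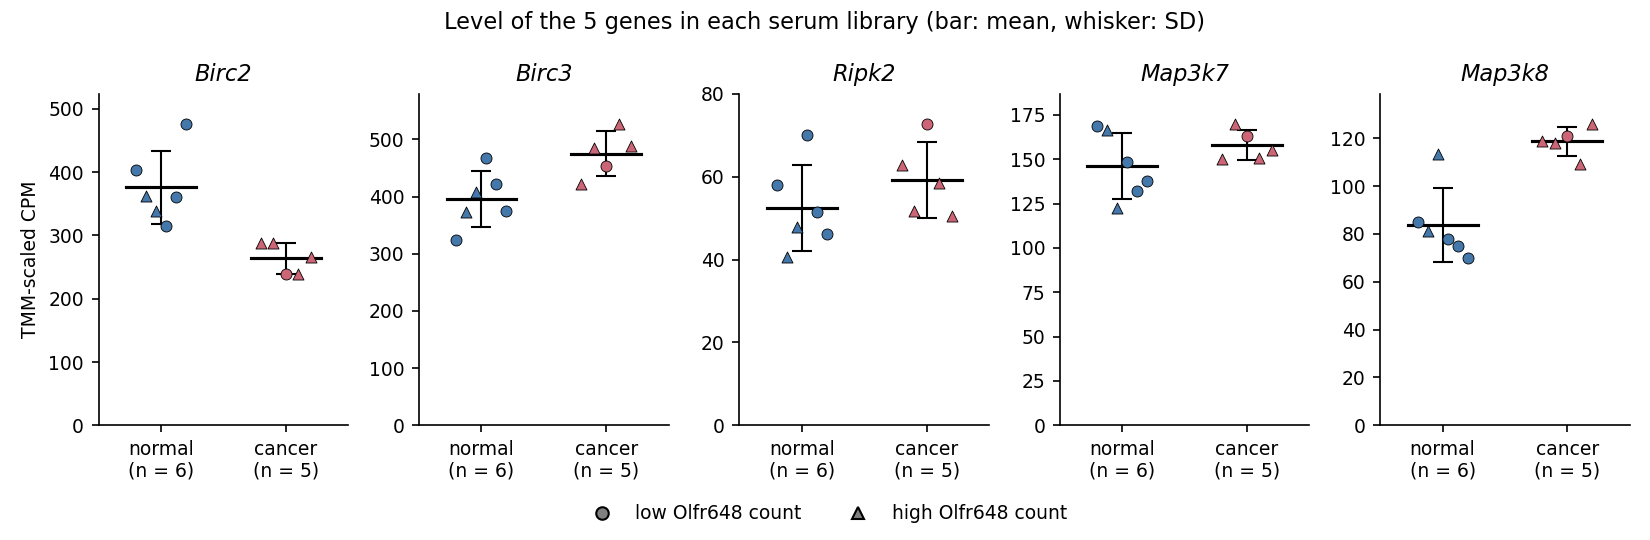
TMM-scaled CPM of each gene in each library, with the group mean (bar) and SD (whisker); circles have low and triangles high Olfr648 counts. Birc2 has no overlap between groups, Map3k8 overlaps through normal replicate 3 alone (113 CPM), and Birc3, Ripk2 and Map3k7 overlap.

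Of the 5 members 1 was called lower and 1 higher, where 1.45% and 0.565% of all tested rows were called in these directions and 2.02% in either. The groups of 1 member, Birc2, did not overlap, where 3.64% of all rows had such groups, 2.1% lower and 1.54% higher in colorectal cancer. By mean CPM the order was the same in both groups, from Birc3 over Birc2, Map3k7 and Map3k8 to Ripk2. Only when divided by exon length did the order of means change between the groups, with near ties in normal serum. In normal serum Birc2 (82.0 ± 12.5 CPM per kb) and Birc3 (78.9 ± 9.82) overlapped at the top, and Map3k7 (22.7 ± 2.91), Ripk2 (18.6 ± 3.70) and Map3k8 (18.6 ± 3.42) overlapped well below them. In colorectal cancer Birc3 (94.9 ± 7.93) lay above Birc2 (57.6 ± 5.38) with no overlap. Map3k8 (26.3 ± 1.34) had the highest mean of the 3 kinases there, overlapping Map3k7 (24.6 ± 1.33), which overlapped Ripk2 (21.03 ± 3.23; SD, n = 6 normal and 5 colorectal cancer throughout).

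Of 73 blood cell markers in 7 lists 26 were tested, and 4 were called lower (Cd3e, Itga2b, Hemgn and Tspan33) and 0 higher, where 1.45% and 0.565% of all rows were. The sums below were not tested. Red cell markers summed to 386 to 683 CPM in normal libraries and 102.5 to 243 in colorectal cancer, with 4 of 12 at 0 in all libraries, among them Hbb-bs and Alas2. This sum was mostly Tspan33, a tetraspanin gene (469 and 161 CPM on average), while the other tested markers besides Hemgn had log2 fold changes of -0.02 (Hba-a1), 0.06 (Epb42) and 0.24 (Gata1). Platelet markers summed to 753 to 1255 and 320 to 642, with 7 of 10 at 0, among them Pf4 and Ppbp. Itga2b made up most of this sum (874 and 379 CPM on average). The other tested platelet markers, Gp6 and Itgb3, had negative log2 fold changes and were not called. T cell markers summed to 337 to 517 and 192 to 296, with 1 of 10 at 0. This sum was mostly Cd3e, which encodes CD3 epsilon (377 and 195 CPM on average). Cd3d, Trac and Lck had 2, 5 and 8 counts in all. The other tested T cell markers had negative log2 fold changes and were not called. Neutrophil markers summed to 99.5 to 378 in normal and 408 to 714 in colorectal cancer libraries, mostly through the collagenase Mmp8, whose row lies 5 genes from Birc2 and was not called (adjusted p = 0.134 by edgeR). Monocyte markers summed to 5.62 to 13.8 and 9.62 to 21.2, with 4 of 10 at 0, B cell markers to 964 to 1481 and 1085 to 1199, with 2 of 10 at 0, and NK cell markers to 77.1 to 107 and 54.0 to 149, with 5 of 8 at 0. The ranges of these last 3 lists overlapped between the groups. The part of these markers in the fall of Birc2 or the rise of Map3k8 was not tested. The RNA is of whole samples labelled serum, so the source cells, their number and the RNA from each cannot be told apart.

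Over all tested rows 54.0% had a positive log2 fold change, 1.45% were called lower and 0.565% higher. Of the 5 tested genes among the 10 nearest to Birc2 and Birc3, 4 had a negative log2 fold change, and Mmp8 was the positive 1. The median over the 5 was -0.64, but it was -0.43 with 10 genes per side and 0.005 with 20 per side. In that widest window 2 of 18 tested genes were called higher and 1 lower. Beside Birc2, Tmem123 had a difference of -0.22 (adjusted p = 0.376 by edgeR), and on the far side of Birc3 the Hippo pathway co-activator Yap1 fell by 1.07, from 79.2 ± 20.2 to 37.6 ± 11.9 CPM (SD, n = 6 and 5; adjusted p = 0.0289 by edgeR). Cep126, a centrosomal protein gene, had -0.86 and Trpc6, a calcium channel gene, -0.64, and Yap1 was the 1 of the 5 called. Around Ripk2, 6 of 7 tested neighbours were positive, with a median of 0.12. The membrane-binding protein gene Cpne3 was called higher there (0.61, adjusted p = 0.0228 by edgeR). With 20 genes per side of Ripk2, 1 of 27 tested was called higher and 1 lower. Around Map3k7 4 of 7 were positive (median 0.14) and around Map3k8 2 of 8 (median -0.10), with 0 called by edgeR at either. Bach2, a B cell regulator beside Map3k7, differed by -0.09, and Mtpap, a mitochondrial poly(A) polymerase beside Map3k8, by -0.16.

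The other genes of the pathway were read from 13 lists by role, which hold 151 genes beside the members. Of these, 52 (34.4%) were at 0 in all libraries, 35 were too low to test, and 64 were tested. By edgeR 0 of the 64 were called in either direction. Without adjustment, 6 higher and 3 lower genes had p under 0.05, a bound that 11.4% of all rows passed. Of the 60 to which DESeq2 gave an adjusted p, it called 1 higher and 0 lower (Map3k6, named after these values were known). Over all 21180 rows to which it gave a p-value, DESeq2 called 148 higher and 217 lower. The median log2 fold change of the 64 by edgeR was 0.10, beside 0.04 over all rows, and 56.2% were positive against 54.0% of all rows. Several central genes cannot be read from these files: Tnf, the adaptor Myd88, the NF-kB inhibitors Nfkbia and Tnfaip3 and the target Sod2 were listed at 0 in all libraries, and these were named after their values were seen.

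Upstream of the members, 3 of 10 ligands were tested, led by Il1b, interleukin-1 beta, at 9.21 ± 3.61 CPM in normal and 7.86 ± 1.69 in colorectal cancer libraries (SD, n = 6 and 5 here and below). Tnfsf12, the ligand TWEAK, stood at 3.06 ± 2.68 and 2.18 ± 2.08. Of 19 receptors 7 were tested. Nod1, the sensor above RIPK2, had 16.2 ± 1.64 and 17.7 ± 2.06, Tnfrsf11a, the receptor RANK, had 9.25 ± 1.20 and 10.9 ± 2.58, and Nod2 was at 0. Among 23 adaptors and ubiquitin ligases 12 were tested, 11 of them with a positive log2 fold change and a median of 0.25, none called. Ticam1, the adaptor TRIF, had 77.5 ± 14.4 and 78.7 ± 9.80, and Peli1, an E3 ligase, 48.6 ± 8.69 and 55.4 ± 6.16.

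Within the members' own families the other rows were lower in abundance. Of 10 IAP genes, members included, 7 were tested, with a median of -0.27, and Birc2 was the 1 called; Xiap was at 0. Their summed level was 743 to 866 CPM in normal libraries and 703 to 786 in colorectal cancer. Of the 4 RIP kinases Ripk2 alone was tested, with 7 counts in all for Ripk1 and 0 for Ripk3. Among 18 MAP3K genes 11 were tested, 5 of them with a positive log2 fold change, and Map3k8 was the 1 called. Map3k6, which activates stress kinases, had a larger difference than Map3k8, 1.15 (SE 0.27), from 20.3 ± 8.12 to 44.7 ± 12.4 CPM, and just missed the threshold (adjusted p = 0.0524 by edgeR) and is named here with its value known. Of the IAP antagonists and caspases 5 of 8 were tested, and all 5 had positive log2 fold changes with none called. Cflar, a brake on caspase-8, had 156 ± 12.5 and 167 ± 11.4 CPM, and Htra2, a mitochondrial protease that binds IAPs, 38.5 ± 10.1 and 39.3 ± 8.91.

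Downstream, all 5 genes of the IKK group were tested, with a median of 0.10 and none called. Ikbke, an IKK-related kinase, had 89.9 ± 23.8 and 96.2 ± 25.1 CPM, and Tbk1, its relative, 40.7 ± 5.99 and 52.4 ± 8.89 (adjusted p = 0.268 by edgeR). Tab2, a ubiquitin-binding partner of TAK1, was the 1 of 3 TAK1 partners tested, at 1.25 ± 1.17 and 2.08 ± 0.967. Of the 5 NF-kB subunits 3 were tested: Rela had 49.7 ± 10.3 and 59.7 ± 5.94, Relb 4.48 ± 2.39 and 4.53 ± 2.11, and the third was Nfkb2. Of 13 inhibitors and deubiquitinases 3 were tested, led by Otulin, which cleaves linear ubiquitin chains, at 91.4 ± 11.8 and 79.1 ± 8.80. Tnip2, which binds TPL2, had 5.20 ± 4.28 and 5.85 ± 2.46. In the MAP kinase arms 5 of 14 were tested, with Mapk14, the kinase p38 alpha, at 100.4 ± 23.8 and 115 ± 14.3 and Mapk8, the kinase JNK1, at 41.3 ± 5.60 and 53.7 ± 7.55 (adjusted p = 0.201 by edgeR). Among 24 NF-kB target genes 14 were at 0 and 6 were tested, with a median of -0.19. The adhesion molecule Vcam1 had 20.8 ± 2.33 and 16.9 ± 3.24, and Il6 13.5 ± 9.36 and 8.79 ± 5.07.

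**Figure D4:**
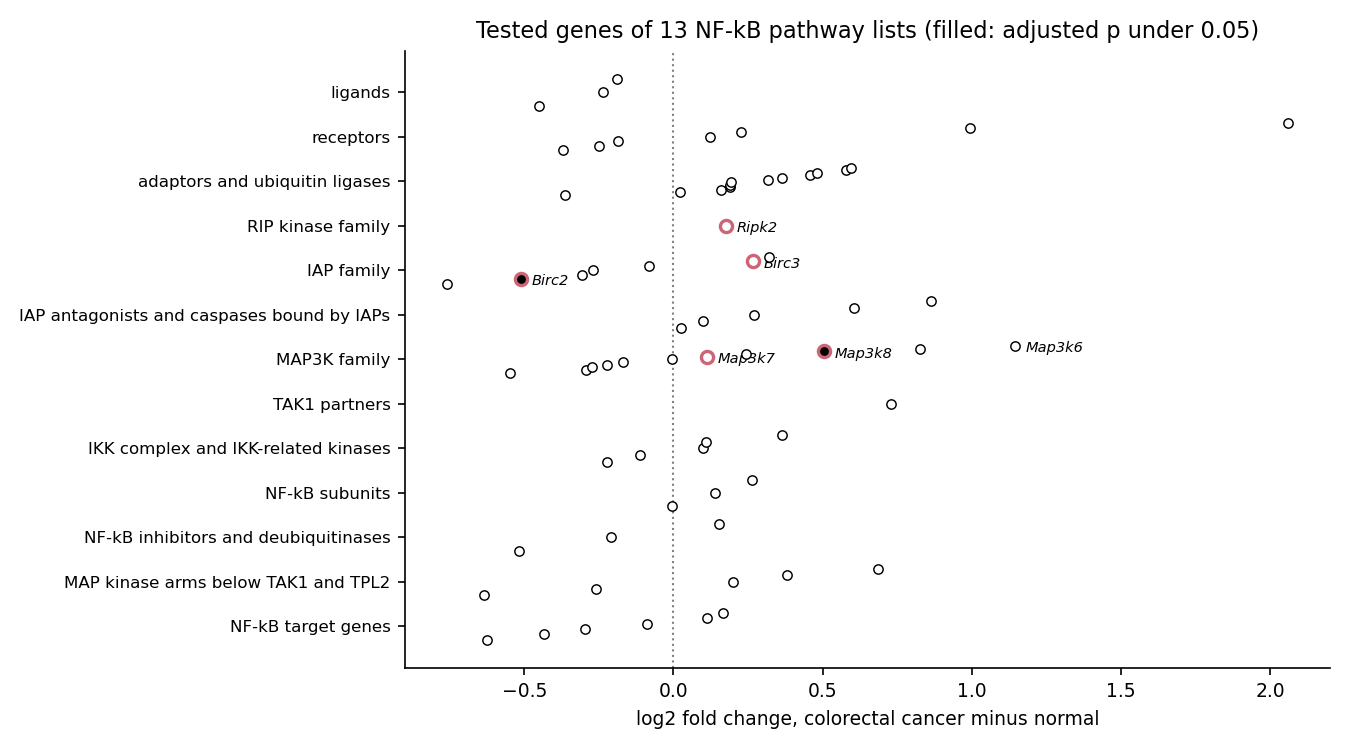
Log2 fold change of each tested gene of the 13 lists, colorectal cancer minus normal, with the members ringed in red and genes with an adjusted p under 0.05 filled. Birc2 at -0.51 and Map3k8 at 0.50 are the filled points, and Map3k6 at 1.15 is open.

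Rows most like each member over the 11 libraries were found by Pearson's r of log2 CPM among 2818 protein-coding rows, as a description of libraries that share their groups and depth. Birc2 was closest to Adgra1 (r = 0.975), Sf1 (0.965) and Cenpb (0.947), of which Adgra1 and Cenpb were themselves called lower. Map3k8 was closest to Tmco3 (0.952), Rita1 (0.927) and Cyfip2 (0.922), with Tmco3 and Rita1 called higher. Birc3 was closest to Etv3 (0.898), Rgs14 (0.894) and Xrcc6 (0.886), Ripk2 to Zc3hc1 (0.935), Sub1 (0.931) and Lyrm2 (0.909), and Map3k7 to Pck2 (0.823), Fiz1 (0.822) and Actl9 (0.821). None of these last 9 rows was called. Lyrm2 lies on chromosome 4, as the fifth gene past Map3k7.

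**Figure D5:**
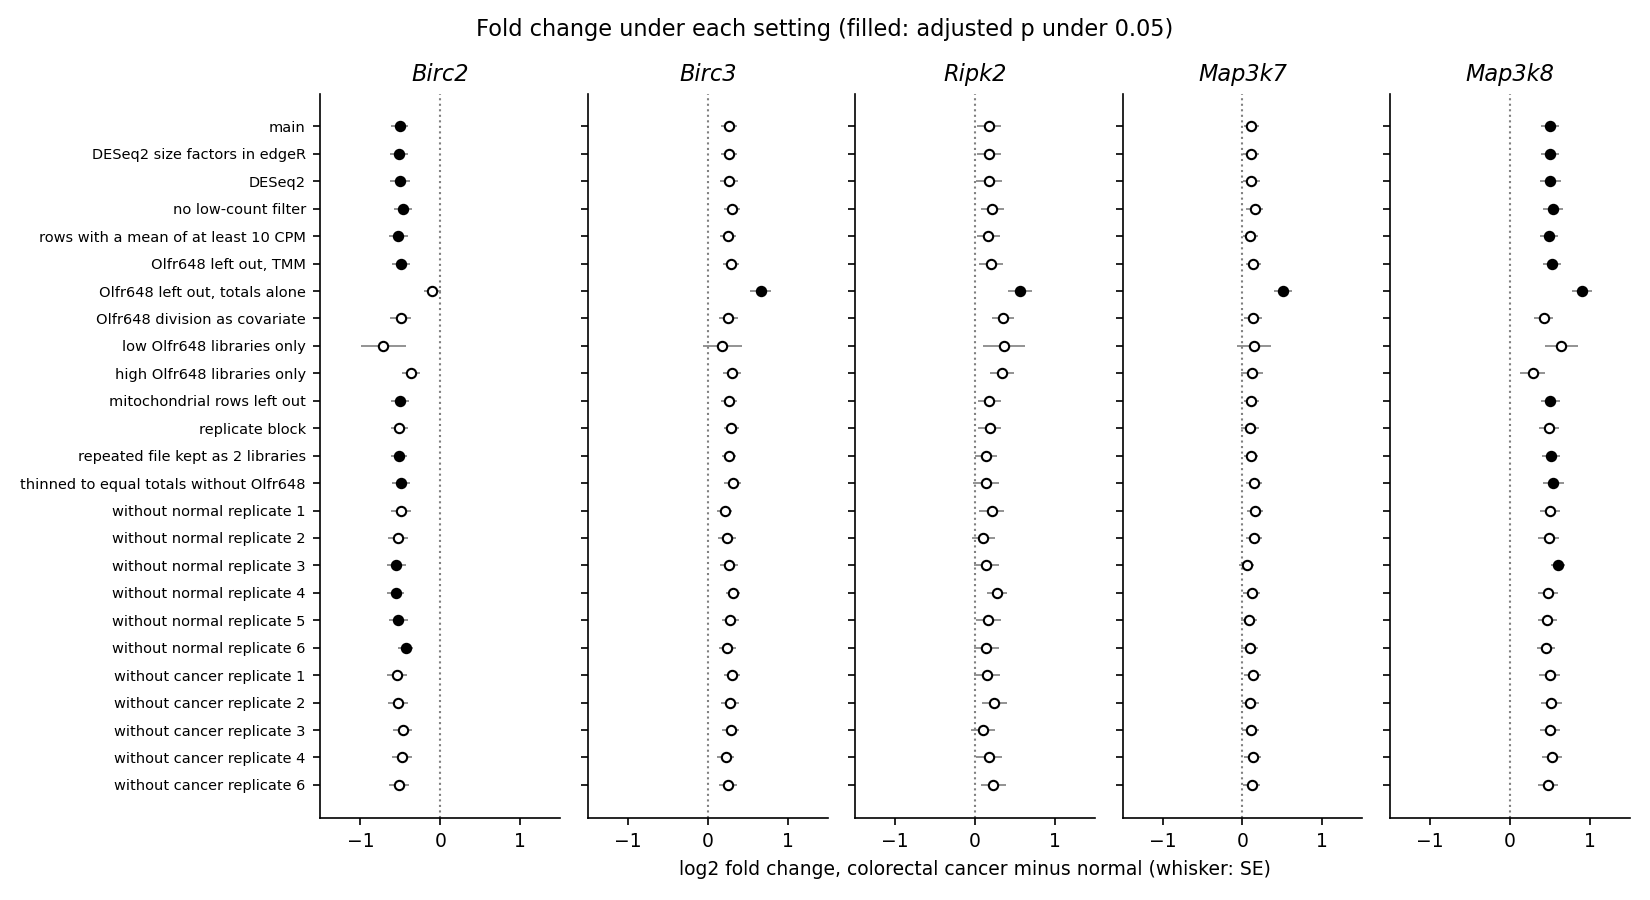
Log2 fold change of each member, colorectal cancer minus normal, with its SE under each setting; filled points have an adjusted p under 0.05. Birc2 is negative and the other 4 genes are positive in every setting shown, and totals alone without Olfr648 moves all 5 upward.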

How the data were processed

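The labels' protocols describe TRIzol extraction of serum and a stranded total RNA library kit. Each deposited file gives counts per gene symbol, whole numbers read here as unnormalized. Trim Galore, HISAT2, StringTie and the build mm10 appear in the submitters' processing notes, without roles. For the annotation, the counter and its use of strand nothing is stated in the sources used here. Rows naming no gene numbered 0.

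Counts were filtered with edgeR's filterByExpr, TMM-scaled and tested with edgeR 4.0.16 (glmQLFit, robust, and glmQLFTest; R 4.3.3) by group alone, with Benjamini-Hochberg adjustment over 9565 rows at 0.05. On simulated data for this comparison with 200 of 9565 genes changed, the test recovered 26% of 2-fold and 60% of 4-fold changes, and 2.27% of calls were unchanged genes. The simulation had no Olfr648 division and drew changed genes from rows of any level. Its rates therefore do not carry over to the smaller changes of the members in these libraries. The log2 ratio of Birc3 to Birc2 used counts plus 0.5. Symbols were matched to GENCODE M21, where 49972 rows had a single position, and all 248 listed genes had a row.

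The members, lists, alternatives and tests were chosen with earlier results of these data known. Genes named beside the members were the called ones of each list, or its 2 most abundant tested, the 5 nearest neighbours per side and the 3 most alike rows with a mean of at least 10 CPM (log2 of CPM plus 0.5). DESeq2 1.42.0, other filters and scalings, and leaving out each library were alternatives. Each member had at least 230 counts in every library.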

Additional observations from a re-analysis of the deposited data

Results flagged for a closer look

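Map3k8 in normal replicate 3 stood at 113 CPM, far from the other 5 normal libraries (69.8 to 84.8), by Dixon's gap test. Of 12 groups of values looked at, this was the 1 past the 95% bound, and chance flags about 1 in 20 groups. That library is also 1 of the 2 normal libraries with a high Olfr648 count; the other, normal replicate 2, stood at 81.0.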

How the results depend on the processing

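Birc2 stayed lower and Birc3, Ripk2, Map3k7 and Map3k8 higher under all 24 alternatives, and the Birc3 to Birc2 log2 ratio stayed between 0.67 and 0.89 under 16. With Olfr648 left out and totals alone, the differences were -0.10 for Birc2, 0.66 for Birc3, 0.57 for Ripk2, 0.51 for Map3k7 and 0.90 for Map3k8, so that 1 call was lost and 3 gained, and 1383 rows were called higher (93.3% of calls). The Birc2 and Map3k8 calls were lost with the Olfr648 division as a covariate (-0.495 and 0.42), in its low libraries (-0.71 and 0.65) and in its high libraries (-0.37 and 0.28); the latter 2 settings have fewer samples, and otherwise the cause was not tested. Rows called higher and lower numbered 54 and 139 in all, 13 and 68 with that covariate, 4 and 4 in the low and 34 and 27 in the high libraries, and 148 and 217 by DESeq2. Rows called higher numbered 82 among rows at a mean of 10 CPM and 112 with the repeated file kept. With libraries thinned to equal totals without Olfr648, the differences were -0.49 for Birc2 (adjusted p = 0.0427 by edgeR) and 0.54 for Map3k8 (adjusted p = 0.0419 by edgeR). With the replicate number as a block (replicate block) the calls of Birc2 (-0.51, adjusted p = 0.112 by edgeR) and Map3k8 (0.49, adjusted p = 0.199 by edgeR) were lost and 6 rows were higher and 59 lower; the labels do not say that a number pairs samples, and deviations of the 5 same-numbered pairs correlated by -0.086 to 0.0381. With 1 library left out, Birc2 lay between -0.56 and -0.43 and Map3k8 between 0.45 and 0.60, and 16 to 67 rows were higher and 89 to 139 lower. Each member had at least 230 counts in every library, and the number of libraries limits the precision.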
